A study of Mus musculus with 18 samples.

Results

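Transcripts of 10 genes that mark the kidney tubule beyond the proximal tubule were followed library by library through fibroblasts that had either stayed in culture or spent 3 days under the kidney capsule. The genes were a listed set, taken by name and matched to 1 Ensembl row each, and made up 10 of the 38924 genes in the count table. They were *Umod*, *Slc12a1* and *Kcnj1* of the loop of Henle, *Slc12a3* and *Calb1* of the distal tubule, *Aqp2*, *Aqp3*, *Scnn1b* and *Scnn1g* of the collecting duct principal cell, and *Atp6v1g3* of the intercalated cell. The rule went by gene name and used no measured value, but earlier results of these data were known when the genes were chosen.

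Fibroblasts were grown from the heart, kidney and tail of male Rosa mT/mG donors, 10 weeks old and on a C57BL/6 background, whose cells all carry membrane TdTomato in the absence of Cre. After 10 days of culture, cells on gelatin foam were placed under the kidney capsule of syngeneic C57BL/6J mice aged 10 to 11 weeks, and 3 days later live CD45-;TdTomato+ cells were sorted from the dissected kidneys. These are the transplanted groups HFs, KFs and TFs. The cells left over were plated again and kept 3 more days as the cultured groups HFc, KFc and TFc, which share the genotype, the donors' age and sex and the first isolation from tissue but were not placed in a host. The study describes no sort out of a host kidney for the cultured cells, so placement in a host and that handling cannot be told apart. Each of the 6 groups held 3 libraries of bulk RNA, 18 in all. The study calls the replicates biological without naming for these libraries whether donors or recipients differed, so p-values describe the spread between these libraries, which may be technical.

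The nephron recovers most of the filtrate in the proximal tubule and then adjusts salt and water in later segments. The thick ascending limb of the loop reabsorbs sodium chloride without water, the distal convoluted tubule takes up more sodium chloride through a thiazide-sensitive carrier, and the collecting duct sets water loss under vasopressin and sodium uptake under aldosterone. Principal cells carry the water channels and the epithelial sodium channel, and intercalated cells secrete acid or base with a proton pump. Most of these genes are used as markers because other cell types express them little, and fibroblasts are not a known source of the loop and distal carriers.

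The members lie on 7 chromosomes in mouse build GRCm38 (GENCODE M21), and all are protein coding. In the loop group, *Umod* lies on chromosome 7 from 119462711 to 119479282, *Slc12a1* on chromosome 2 from 125152505 to 125230002, and *Kcnj1* on chromosome 9 from 32372493 to 32399197. In the distal group, *Slc12a3* lies on chromosome 8 from 94329201 to 94366214 and *Calb1* on chromosome 4 from 15881264 to 15908064. Of the principal cell genes, *Aqp2* lies on chromosome 15 from 99579055 to 99584547 and *Aqp3* on chromosome 4 from 41092722 to 41098183. The sodium channel subunits *Scnn1g*, from 121734479 to 121768475, and *Scnn1b*, from 121865038 to 121918514, are neighbours on chromosome 7. *Atp6v1g3* lies on chromosome 1 from 138273738 to 138289462. An annotated antisense gene overlaps *Umod* and another overlaps *Slc12a1*, while *Cog7* overlaps *Scnn1b* from the opposite strand. The counting used read strand.

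Promoters are shown for 1 gene of each segment class and for the loop gene *Slc12a1*, so that the start regions of all segment classes can be read side by side. RefSeq promoter sequence (GRCm38.p6, 250 bases before to 50 after the annotated start, written 5′ to 3′ on the gene's strand) was matched for 9 of the 10 members, and none was found for *Calb1*. Capitals mark matches to the AP-2 motif described after the sequences. The windows are chr7:119479213-119479512 on the minus strand for *Umod*, chr2:125152350-125152649 on the plus strand for *Slc12a1*, chr8:94328958-94329257 on the plus strand for *Slc12a3*, chr15:99578806-99579105 on the plus strand for *Aqp2* and chr1:138273488-138273787 on the plus strand for *Atp6v1g3*.
*Umod*: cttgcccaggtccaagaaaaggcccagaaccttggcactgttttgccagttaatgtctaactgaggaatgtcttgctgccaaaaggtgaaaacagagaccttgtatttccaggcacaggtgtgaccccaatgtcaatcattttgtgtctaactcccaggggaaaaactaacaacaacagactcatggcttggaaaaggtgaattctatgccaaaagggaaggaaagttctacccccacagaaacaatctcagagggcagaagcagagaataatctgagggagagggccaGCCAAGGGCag
*Slc12a1*: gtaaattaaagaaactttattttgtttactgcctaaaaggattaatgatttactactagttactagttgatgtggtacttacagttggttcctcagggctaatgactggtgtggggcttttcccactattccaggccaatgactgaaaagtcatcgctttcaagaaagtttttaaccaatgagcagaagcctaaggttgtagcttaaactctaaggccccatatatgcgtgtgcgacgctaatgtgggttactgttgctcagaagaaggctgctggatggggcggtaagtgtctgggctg
*Slc12a3*: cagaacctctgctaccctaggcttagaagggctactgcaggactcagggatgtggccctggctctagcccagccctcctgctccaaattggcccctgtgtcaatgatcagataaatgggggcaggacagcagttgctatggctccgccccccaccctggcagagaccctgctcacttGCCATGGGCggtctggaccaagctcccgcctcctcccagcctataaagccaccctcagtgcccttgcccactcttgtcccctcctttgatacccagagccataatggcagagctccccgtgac
*Aqp2*: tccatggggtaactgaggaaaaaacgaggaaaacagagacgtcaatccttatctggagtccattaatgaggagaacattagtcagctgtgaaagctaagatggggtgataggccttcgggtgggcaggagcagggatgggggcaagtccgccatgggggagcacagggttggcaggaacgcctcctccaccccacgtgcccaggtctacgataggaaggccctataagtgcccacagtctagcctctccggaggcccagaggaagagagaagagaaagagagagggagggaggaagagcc
*Atp6v1g3*: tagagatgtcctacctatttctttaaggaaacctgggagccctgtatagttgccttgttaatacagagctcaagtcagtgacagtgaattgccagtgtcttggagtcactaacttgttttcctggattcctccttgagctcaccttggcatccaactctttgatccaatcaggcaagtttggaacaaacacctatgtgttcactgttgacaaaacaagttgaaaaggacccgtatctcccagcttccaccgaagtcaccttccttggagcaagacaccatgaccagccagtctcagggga

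The AP-2 motif GCCNNNGGC, read on either strand, was in 2 of the 9 member promoters, those of *Umod*, 39 bases after the start, and *Slc12a3*, 73 bases before it, against 16.59% of all 32851 promoters in the table. Neither the letters TCAAGGTCA, of estrogen-related receptors (0.42% of all promoters), nor AACCGGTT, of grainyhead-like factors (0.15%), were in any of the 9 windows. A match here is a run of letters and not a measured binding site, and the promoters of *Slc12a1*, *Aqp2* and *Atp6v1g3* hold no match to the 3 motifs.

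Library totals ran from 17927838 to 32245168 expected counts, so that 1 count was worth 0.0310 to 0.0558 CPM (counts per 1000000 counts of the library), and 3 counts in a library were taken as the floor under which a gene was not separated from 0. The 10 fibroblast markers (all named after their values were seen) did not move together. On average *Col1a1*, *Col1a2*, *Col3a1*, *Pdgfra*, *Dcn* and *Lum* were higher in transplanted than cultured cells of each organ. *Vim*, *Thy1* and *S100a4* were lower in each, and *Pdgfrb* was mixed. The markers summed to 15590 to 20444 CPM in cultured and 22690 to 113190 CPM in transplanted libraries, mostly from the collagens in the latter. The lowest transplanted value was in KFs replicate 3. That library stands apart: it alone held *Xist*, at 1716 CPM against at most 0.396 in the others, and its 4 Y-linked genes summed to 0.830 CPM against at least 173.5, although the donors are described as male. Its deposited name also follows another scheme than those of the other 17 libraries. Tests of KFs against KFc are therefore also given without it, as an alternative added after the data were seen for the gene lists.

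Libraries of transplanted cells of all 3 organs held transcripts of the distal nephron, and libraries of cultured cells held almost none. Over the 9 transplanted libraries the 10 genes had 7801 counts, and 74 of 90 gene and library pairs were above the floor. In the 9 cultured libraries they had 46 counts, 28 of them from *Slc12a1* and 11 from *Aqp3*, and only 2 of 90 pairs were above the floor, *Slc12a1* in KFc replicate 3 with 10 counts and in TFc replicate 1 with 6. *Umod*, *Kcnj1*, *Calb1*, *Scnn1b*, *Scnn1g* and *Atp6v1g3* had 0 counts in each cultured library. In bulk RNA, fewer cells of a type and less RNA per cell cannot be told apart. Whether the reads came from the grafted cells or from the host kidney was not tested.

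**Figure D1:**
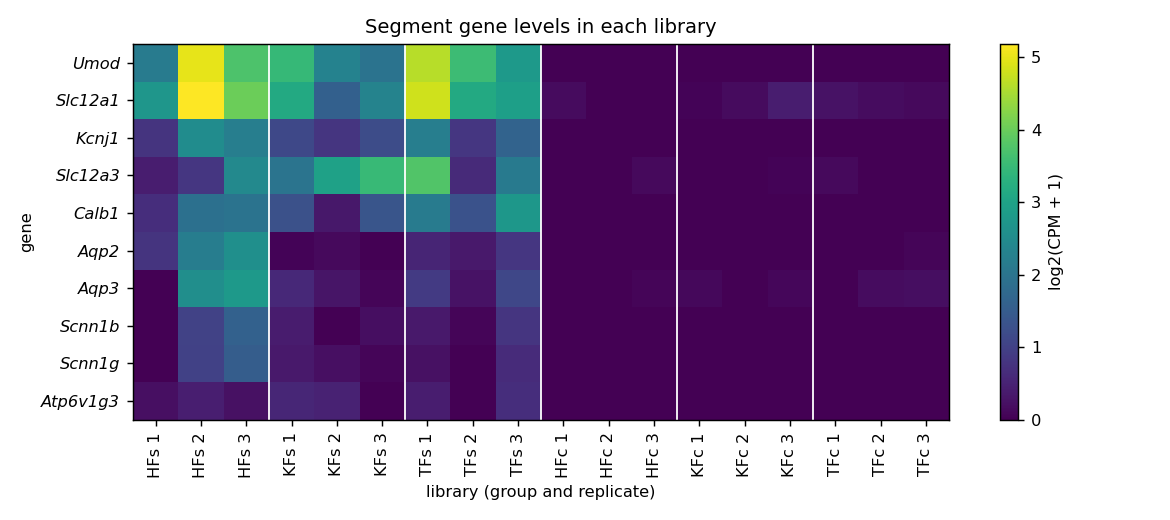
Heat map of log2(CPM + 1) for the 10 genes (rows) in the 18 libraries (columns, by group and replicate). The 9 transplanted libraries hold nearly all of the signal, with 74 of 90 cells of the map above the 3-count floor against 2 of 90 in the cultured libraries.

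The summed level of the 10 genes was 11.6, 85.6 and 53.6 CPM in HFs replicates 1 to 3, 25.2, 14.7 and 20.2 CPM in KFs, and 72.6, 21.9 and 27.5 CPM in TFs. Cultured libraries lay between 0 and 0.436 CPM, so the states did not overlap, while the 3 organs' transplanted ranges did. The order of the means was HFs (50.3 ± 37.1 CPM, SD, n = 3), TFs (40.7 ± 27.8) and KFs (20.0 ± 5.26), and the libraries of neighbouring groups overlapped in range. Transplanted heart fibroblasts held both the lowest and the highest library of the 9.

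All 10 genes passed the filter on low counts, which they did through the transplanted libraries, so they had to be higher there and their counts of calls describe rather than test the shift. In the quasi-likelihood test of edgeR, with p adjusted by Benjamini-Hochberg over 16577 genes, at adjusted p under 0.05 and a log2 fold change over 1, 10 of 10 were higher in HFs than in HFc, where 18.3% of all genes were. In KFs relative to KFc 6 of 10 were higher (14.7% of all genes), and the same 6 were called without KFs replicate 3. In TFs relative to TFc 7 of 10 were higher (11.0% of all genes). For the mean of the 3 organs 10 of 10 were higher, against 17.4% of all genes, and no member was lower in any of these comparisons.

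Without KFs replicate 3 the adjusted p for KFs against KFc, by edgeR, was 0.00105 for *Umod*, 0.000764 for *Slc12a1*, 0.00228 for *Kcnj1*, 0.000585 for *Slc12a3*, 0.00408 for *Calb1* and 0.00942 for *Atp6v1g3*. The other members had 0.0872 (*Aqp2*), 0.143 (*Aqp3*), 0.158 (*Scnn1b*) and 0.0869 (*Scnn1g*). Mean KFs levels over the 2 libraries left were 7.003 CPM for *Umod*, 4.95 for *Slc12a1* and 4.92 for *Slc12a3*, against 5.65, 4.62 and 6.70 with all 3, and the bounds on the fold were at least 66.0 for *Umod*, 9.06 for *Kcnj1* and 7.92 for *Calb1*.

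The loop genes made up most of the signal. *Umod* encodes uromodulin, the most abundant urinary protein, which thick ascending limb cells secrete. It had 64, 775 and 356 counts in HFs replicates 1 to 3, 255, 122 and 64 in KFs, and 428, 226 and 130 in TFs, against 0 in all 9 cultured libraries. The levels were 15.6 ± 14.1 CPM in HFs, 5.65 ± 3.88 in KFs and 13.5 ± 9.28 in TFs (SD, n = 3), highest in HFs replicate 2 and lowest in KFs replicate 3. Against the mean floor of the cultured libraries *Umod* was at least 138-fold higher in HFs (adjusted p = 0.000328 by edgeR), at least 53.2-fold in KFs (0.00128) and at least 114-fold in TFs (0.000832).

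*Slc12a1* encodes NKCC2, the sodium-potassium-chloride cotransporter that loop diuretics block. Its counts were 103, 885 and 441 in HFs, 199, 63 and 86 in KFs and 482, 165 and 144 in TFs. In culture it had 3, 0 and 0 counts in HFc, 1, 3 and 10 in KFc, and 6, 3 and 2 in TFc and was the only member above the floor there. Transplanted and cultured libraries did not overlap in any organ. It was higher in KFs than in KFc by a log2 fold change of 4.75 (SE 0.94, adjusted p = 0.000641 by edgeR) and in TFs than in TFc by 6.57 (SE 0.98, adjusted p = 9.37e-05). In HFs its CPM from pooled counts was 540 times that of HFc (95% exact interval 184 to 2619, counting error only, from 3 cultured counts), with an adjusted p of 1.02e-05.

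*Kcnj1* encodes ROMK, the potassium channel that returns potassium to the lumen for NKCC2. Its counts were 13, 118 and 106 in HFs, 30, 23 and 28 in KFs and 66, 16 and 47 in TFs, with 0 in culture. The 3 loop genes ranked the libraries alike at the top, HFs replicate 2 and TFs replicate 1 being the 2 highest for each. The gene was at least 26.9-fold higher in HFs, 10.1-fold in KFs and 18.5-fold in TFs than the cultured floor, with adjusted p of 0.00026, 0.00134 and 0.000866 by edgeR.

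**Figure D2:**
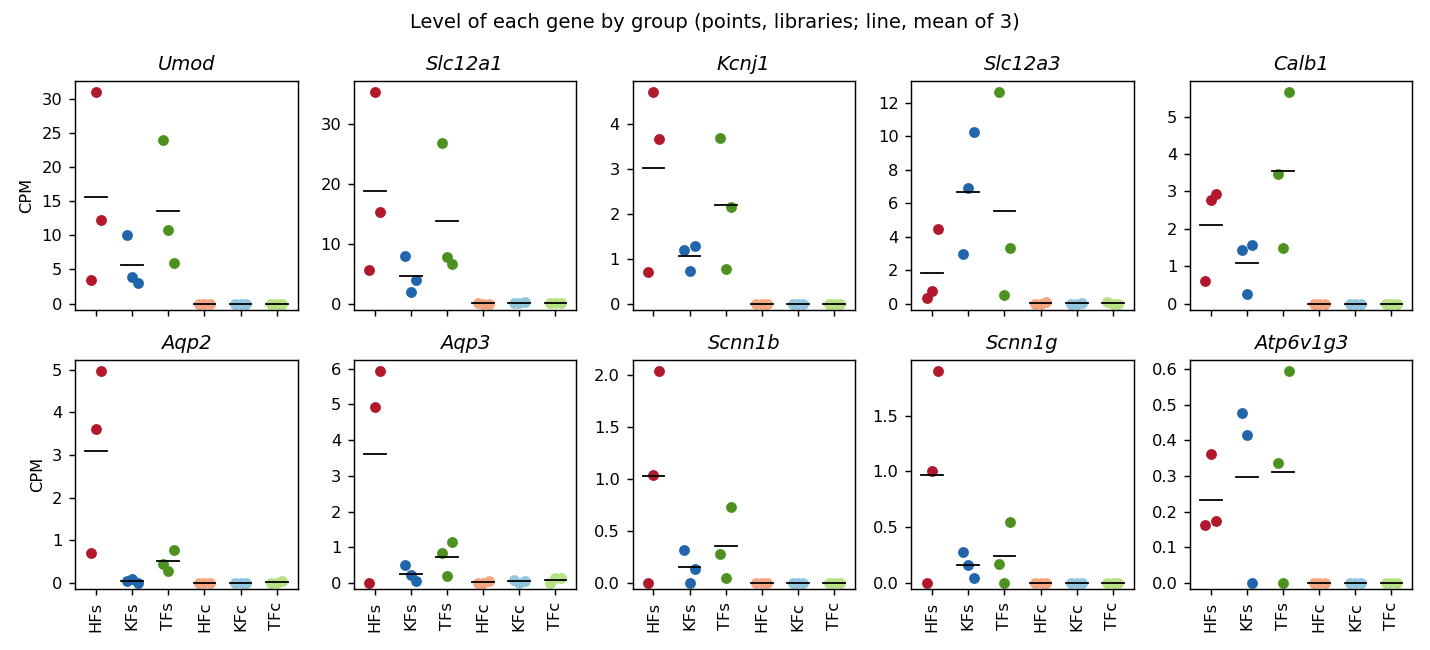
Level of each gene in CPM (vertical axes, linear and separate for each gene) in the 6 groups, with each library as a point and a line at the mean of 3. The transplanted groups HFs, KFs and TFs lie above the cultured groups for the loop and distal genes, the collecting duct water channels are highest in HFs replicates 2 and 3, and some transplanted libraries lie at 0 for *Aqp2*, *Aqp3*, *Scnn1b*, *Scnn1g* and *Atp6v1g3*.

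The distal genes did not follow the loop genes closely. *Slc12a3* encodes NCC, the thiazide-sensitive sodium chloride cotransporter of the distal convoluted tubule. It had 6, 19 and 129 counts in HFs, 75, 215 and 222 in KFs and 227, 11 and 73 in TFs, against at most 3 in any cultured library. HFs replicate 2, the library highest in *Umod* and *Slc12a1*, was among the 3 lowest for *Slc12a3*, and KFs replicates 2 and 3, among the lowest for *Umod*, were among the 3 highest. The means were 1.85 ± 2.27 CPM in HFs, 6.70 ± 3.64 in KFs and 5.51 ± 6.35 in TFs (SD, n = 3). The CPM from pooled counts was 87.2 times that of culture for heart (95% exact interval 23.7 to 727, from 2 cultured counts) and 133 times for tail (45.1 to 649, from 3), and at adjusted p of 0.00334 and 0.0013 by edgeR both groups were called. KFs were called as well, at an adjusted p of 0.000437 with 512 counts against 1.

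*Calb1* encodes calbindin-D28k, a calcium-binding protein of distal convoluted and connecting tubule cells that some neurons also make. Its counts were 11, 69 and 85 in HFs, 36, 8 and 34 in KFs and 62, 31 and 124 in TFs, and 0 in culture. TFs replicate 3 was highest and KFs replicate 2, with 215 counts of *Slc12a3*, was lowest. The level was at least 18.6-fold above the cultured floor in HFs, 10.2-fold in KFs and 29.8-fold in TFs (adjusted p = 0.000654, 0.00212 and 0.000801 by edgeR).

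The principal cell genes were the most uneven of the members. *Aqp2* encodes the water channel that vasopressin moves to the luminal membrane. It had 13, 90 and 144 counts in HFs, 1, 3 and 0 in KFs and 8, 6 and 17 in TFs, and 1 count in a single cultured library. The 3 groups did not overlap in CPM except where TFs replicate 3 (0.777) passed HFs replicate 1 (0.705), and no KFs library was above the floor. It was at least 27.4-fold above the floor of HFc (adjusted p = 0.000123 by edgeR). In TFs it was called at an adjusted p of 0.00899, with 39.8 times the CPM of TFc from pooled counts (95% exact interval from 6.63, on 1 cultured count). KFs relative to KFc had an adjusted p of 0.123, and no fold is given because both groups were at or under the floor.

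*Aqp3* encodes the water and glycerol channel of the basolateral side of the same cells, and is also made by skin and other epithelia. Its counts were 0, 123 and 172 in HFs, 13, 7 and 1 in KFs and 15, 4 and 25 in TFs, against 0 to 3 in culture. HFs replicate 1 had no read of it, while the other two HFs libraries were the highest of all. HFs were called (adjusted p = 0.00127 by edgeR, 295 counts against 1), while KFs (0.217) and TFs (0.0962) were not, with pooled ratios of 5.70 (95% exact interval 1.93 to 22.9) and 9.41 (4.00 to 27.0).

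*Scnn1b* and *Scnn1g* encode the beta and gamma subunits of the epithelial sodium channel, which aldosterone raises and amiloride blocks. *Scnn1b* had 0, 26 and 59 counts in HFs, 8, 0 and 3 in KFs and 5, 1 and 16 in TFs. *Scnn1g* had 0, 25 and 55 counts in HFs, 7, 5 and 1 in KFs and 3, 0 and 12 in TFs, and both had 0 in culture. The subunits ran together, at 0 in HFs replicate 1 and highest in HFs replicate 3. Both were called in HFs (adjusted p = 0.0157 and 0.0138 by edgeR, at least 9.10-fold and 8.57-fold above the floor). Neither was called in KFs (0.138 and 0.109) or TFs (0.0734 and 0.0949).

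*Atp6v1g3*, a proton pump subunit of intercalated cells, was the lowest member. It had 3, 9 and 5 counts in HFs, 12, 13 and 0 in KFs and 6, 0 and 13 in TFs, and 0 in culture. Each organ thus had a library at or under the floor. It was called in each organ, but close to the threshold (adjusted p = 0.044 in HFs, 0.0354 in KFs and 0.0488 in TFs by edgeR), at least 2.06-fold, 2.80-fold and 2.61-fold above the floor. With DESeq2 the HFs (0.0507) and TFs (0.0532) calls were lost, and the TFs call was lost with no filter on low counts (0.0536). The HFs call was also lost without any 1 of HFs replicates 1 to 3, HFc replicates 1 to 3, KFs replicates 1 and 2, or TFs replicates 1 and 3, at adjusted p of 0.0508 to 0.0989. The KFs call was lost without KFs replicate 1 or 2 or any KFc library (0.071 to 0.0773), and the TFs call without any 1 of 16 libraries (0.0511 to 0.139), all but KFs replicate 3 and TFs replicate 2. Without HFs replicate 1 the TFs comparison also gained *Aqp3* (0.0267), *Scnn1b* (0.0362) and *Scnn1g* (0.0451) as calls.

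Levels can be compared between genes only per length. Divided by the length of each gene's merged exons, mean levels over the 9 transplanted libraries were 4.20 ± 3.53 CPM per kb for *Umod* and 2.15 ± 1.99 for *Slc12a1* (SD, n = 9), and between 0.148 and 0.856 for the others, with *Scnn1b*, *Scnn1g* and *Atp6v1g3* lowest. With the longest coding transcript as the length, a choice made after the data were seen, *Slc12a3* moved from rank 7 to rank 3, at 1.09 ± 1.02 in place of 0.421 ± 0.397 CPM per kb, since its merged exons span 11119 bases against 4310. The ranks of *Umod*, *Slc12a1*, *Scnn1b*, *Scnn1g* and *Atp6v1g3* were the same by either length, and by merged exons neighbours below *Slc12a1* lay within 1 SD of each other.

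The segments' shares of the 10 genes' counts differed between transplanted libraries of 1 organ beyond counting error. In HFs, loop genes took 84.5% (95% exact interval 78.9 to 89.1), 83.1% (81.5 to 84.7) and 58.2% (55.7 to 60.7) of the counts in replicates 1 to 3. Principal cell genes took 6.10% (3.29 to 10.2), 12.3% (11.0 to 13.8) and 27.7% (25.5 to 30.01) of the counts in the same libraries. Replicate 3 thus had a lower loop share and a higher principal cell share than both others, while its loop level of 31.2 CPM lay between theirs (9.77 and 71.1 CPM).

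In KFs the distal share was 17.5% (14.6 to 20.6), 48.6% (43.9 to 53.3) and 58.3% (53.6 to 63.0), and the principal cell share was at most 4.56%. In TFs the loop share was 75.0% (72.5 to 77.3), 88.5% (85.2 to 91.3) and 53.4% (49.3 to 57.5), and the distal share was 22.2%, 9.13% and 32.8%. The intercalated share was 0 to 2.83% over the 9 libraries. These intervals cover counting error only, and the reads carry no molecular identifiers. With counts scaled by length, the loop share still ranged from 46.9% to 89.0%, and the highest distal share, in KFs replicate 3, was 35.7%.

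**Figure D3:**
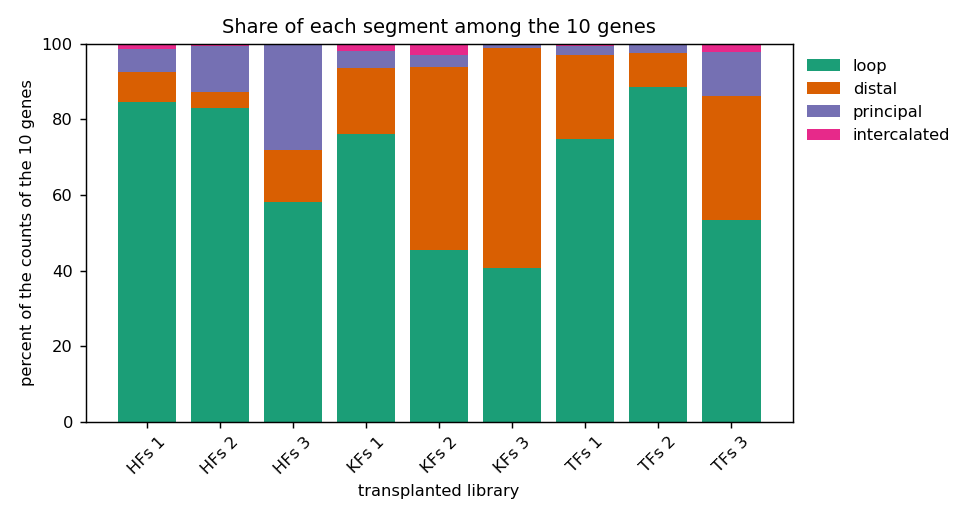
Stacked bars of the percent of the 10 genes' counts (vertical axis, from 0 to 100) that fell on loop (*Umod*, *Slc12a1*, *Kcnj1*), distal (*Slc12a3*, *Calb1*), principal cell (*Aqp2*, *Aqp3*, *Scnn1b*, *Scnn1g*) and intercalated cell (*Atp6v1g3*) genes in each transplanted library. The distal share reaches 58.3% in KFs replicate 3, and the principal cell share 27.7% in HFs replicate 3.

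Between transplanted organs few members differed. HFs relative to TFs gave 1 member at adjusted p under 0.05, *Aqp2*, higher in HFs by a log2 fold change of 2.83 (SE 0.81, adjusted p = 0.0264 by edgeR), where 23.1% of all genes differed in either direction. That call was lost without HFs replicate 2 (adjusted p = 0.0736) or 3 (0.109), or TFs replicate 1 (0.0888), 2 (0.107) or 3 (0.051). Without HFs replicate 1 *Aqp3* was called as well. KFs relative to TFs also gave *Aqp2* alone, lower in KFs by 3.18 on the log2 scale (SE 1.02, adjusted p = 0.0355 by edgeR), against 29.1% of all genes. With no KFs library above the floor, the size of that fold is uncertain. The call of *Aqp2* was lost without KFs replicate 3 (0.07), TFs replicate 1 (0.0559) or 3 (0.126), KFs replicate 1 (0.0776) or HFs replicate 2 (0.0518), and *Slc12a1* was gained without KFs replicate 1.

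HFs relative to KFs gave 3 members, against 33.2% of all genes. *Aqp2* was higher in HFs by a log2 fold change of 6.01 (SE 1.01, adjusted p = 0.00099 by edgeR), *Aqp3* by 3.91 (SE 1.24, 0.0245) and *Slc12a1* by 2.21 (SE 0.69, 0.0234). No KFs library was above the floor for *Aqp2*, so the size of its fold against KFs is uncertain. The call of *Slc12a1* was lost without HFs replicate 2 (0.168) or KFs replicate 2 (0.0818), and that of *Aqp3* without those libraries (0.0679 and 0.0723) or HFs replicate 3 (0.0858), while *Kcnj1* was gained without HFs replicate 1 and *Slc12a3* without HFs replicate 3. Without KFs replicate 3 all were called, *Aqp2* at 5.52 (0.00166), *Aqp3* at 3.44 (0.0446) and *Slc12a1* at 2.07 (0.0404). *Aqp2* was thus the only member called in each comparison between transplanted organs, with 247 counts in HFs, 31 in TFs and 4 in KFs.

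Cultured kidney and tail fibroblasts gave 0 of 10 members in the comparison of KFc with TFc, where 36.4% of all genes differed. None had an unadjusted p under 0.05 in edgeR and DESeq2 called 0 as well, but with 6 members at 0 in both groups this comparison has no reads to test them with. The differences between organs in the response to transplantation gave 0 members by edgeR for heart against tail (22.8% of all genes), kidney against tail (11.1%) and heart against kidney (26.2%). At unadjusted p under 0.05 the counts were 0, 0 and 1, and without KFs replicate 3 none was called. Without HFs replicate 1, *Aqp3* was called for heart against kidney. DESeq2 called 0, 0 and 3, the 3 being *Slc12a1*, *Aqp2* and *Aqp3* for heart against kidney. For members at 0 in both cultured groups the standard errors leave nothing to read from these tests.

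In the wider segment lists more genes were higher than lower after transplantation. As with the members, list genes with no count in culture passed the filter only through the transplanted libraries, so their calls are a description. Over all genes 18.3%, 14.7% and 11.0% were called higher in HFs, KFs and TFs, and 9.33%, 7.99% and 5.53% lower. Of 12 other thick ascending limb genes 10 were tested, and 8 were higher in HFs than HFc, 5 in KFs than KFc and 5 in TFs than TFc, with 0 lower. The median log2 fold changes of the tested genes were 6.46, 2.34 and 2.92, against 0.05, 0.09 and 0 over all genes. Without KFs replicate 3 the KFs count was 4 and the median 1.93. *Egf*, whose product is shed into urine by these cells, was at 29.5 ± 17.99 CPM in HFs, 8.71 ± 5.62 in KFs and 24.2 ± 20.5 in TFs (SD, n = 3) and at 0.742 to 1.15 CPM on average in the cultured groups. *Casr*, the calcium-sensing receptor, was called higher in each organ too.

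Of 14 other distal convoluted and connecting tubule genes 12 were tested, and 10 were higher in HFs, 5 in KFs and 8 in TFs, with 1 lower in HFs, *Stk39*, a kinase that fibroblasts also express. The medians were 3.89, 1.58 and 3.32, and without KFs replicate 3 the KFs count was 5 of 13 with a median of 1.57. *Klk1*, tissue kallikrein of the connecting tubule, had 0 counts in all cultured libraries and 7.16 ± 5.74, 6.13 ± 5.72 and 5.23 ± 3.29 CPM in HFs, KFs and TFs. *Fxyd2*, a regulatory subunit of the sodium pump, had 20.0 ± 18.7, 6.05 ± 1.46 and 13.6 ± 7.37 CPM, against 0.214 to 0.803 on average in culture. *S100g*, calbindin-D9k, was higher in all 3 organs as well.

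The principal cell list, like its members, had most calls in heart. Of 10 other genes 8 were tested, and 6 were higher in HFs, 1 in KFs and 3 in TFs, with *Gata3* lower in HFs and TFs. *Tmem45b* was called in each organ, and *Nr3c2*, the mineralocorticoid receptor, and *Scnn1a*, the alpha subunit of the sodium channel, in HFs (adjusted p = 0.0208 and 0.00356 by edgeR). The responses of these receptor and subunit genes did not pass the test of a difference from kidney (0.197 and 0.0565) or tail (0.541 and 0.238). The medians were 3.41, 0.78 and 1.91. Without KFs replicate 3 the KFs call of *Tmem45b* was lost, *Nr3c2* was called lower, and the median was 0.26. Of 13 other intercalated cell genes 9 were tested, with 4, 3 and 4 higher and *Dmrt2* lower in HFs and KFs, and 5 of 10 higher in KFs without KFs replicate 3. *Atp6v0a4*, a proton pump subunit whose loss causes distal renal tubular acidosis, was called in each organ, at 4.77 ± 5.26, 0.857 ± 0.773 and 2.82 ± 1.33 CPM.

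Genes of the pathway from the vasopressin receptor to *Aqp2* summed to 2567 to 3622 CPM in transplanted and 3636 to 4212 CPM in cultured libraries. Of 20 genes for the receptor, G protein, kinase and vesicle traffic 19 were tested, and 1 was higher and 3 lower in HFs, 0 and 1 in KFs, and 0 and 1 in TFs, with medians of -0.60, -0.35 and -0.25 (-0.26 in KFs without KFs replicate 3). *Gnas*, the stimulatory G protein, was at 474 to 613 CPM on average in transplanted and 684 to 727 in cultured groups. *Dync1h1*, the dynein heavy chain, was at 1017 to 1255 and 1323 to 1705 CPM. The gene that did not pass the filter was *Avpr2*, the vasopressin receptor of the collecting duct, named here after its values were seen. It had 0 counts in all cultured and KFs libraries, and at most 10 counts in any HFs and 3 in any TFs library.

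Genes that set up or hold together renal epithelium gave another pattern. Summed over 17 such genes (*Pax8*, *Cdh16* and others) KFc stood at 93.9 to 108 CPM, while HFc and TFc lay at 6.67 to 7.26 CPM. Of 16 tested genes 12 were higher in KFc than TFc, against 17.8% of all genes. The 10 segment genes nevertheless summed to 0.106 to 0.436 CPM in KFc. KFs replicates 1 and 2 lay at 55.6 and 40.3 CPM, under all KFc libraries, and KFs replicate 3 at 616 CPM. Relative to culture 9 of 16 were higher and 1 lower in HFs, 8 and 1 in TFs, and 3 and 0 in KFs, with medians of 5.19, 4.65 and 1.12. The KFs count was near the share over all genes, of which 14.7% were higher in KFs. The KFs values turned with 1 library: without KFs replicate 3, 1 of 16 was higher (*Krt19*) and 6 were lower, *Pax8*, *Krt8* and *Krt18* among them (named after their values were seen), with a median of -1.25. In KFs replicate 3 the 10 segment genes, at 20.2 CPM, lay between the other two KFs libraries.

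**Figure D4:**
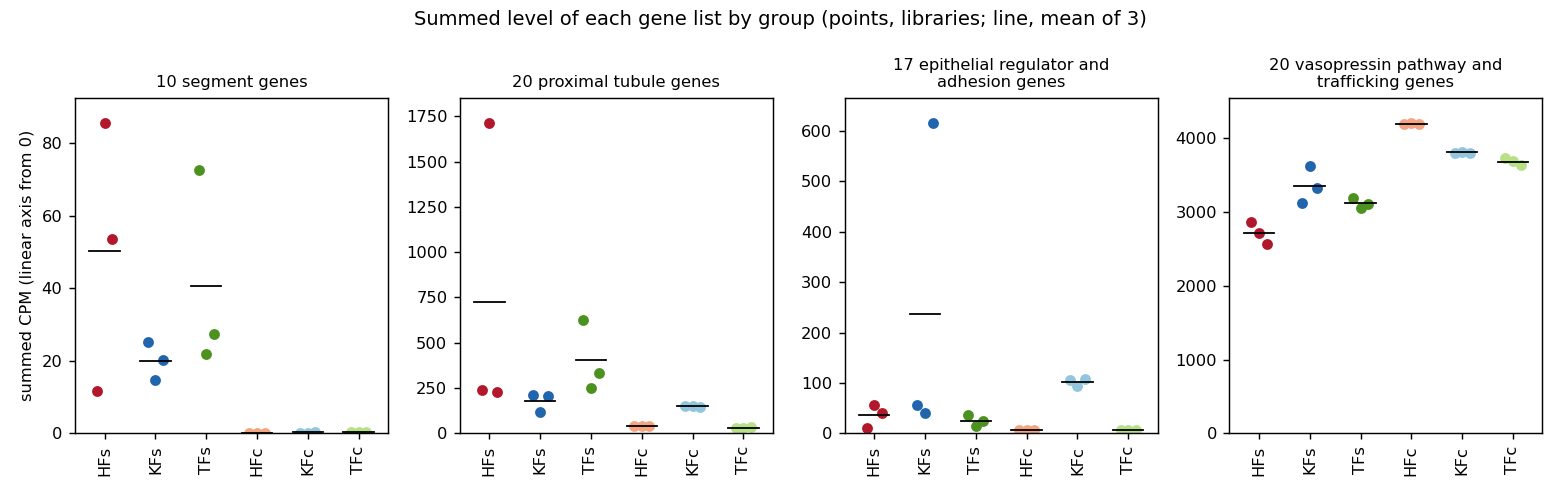
Summed CPM (vertical axes, linear from 0, separate for each panel) of the 10 segment genes, 20 proximal tubule genes, 17 epithelial regulator and adhesion genes and 20 vasopressin pathway genes in the 6 groups, with each library as a point and a line at the mean of 3. The segment genes are near 0 in all cultured groups, whereas the regulators stand at 93.9 to 108 CPM in KFc and at 616 CPM in KFs replicate 3.

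Proximal tubule genes were also called higher after transplantation, but in kidney the summed levels in culture lay within the transplanted range. The sort was for live CD45-;TdTomato+ cells, and whether host cells or host RNA passed it was not tested. The 20 proximal tubule genes summed to 237, 1714 and 225 CPM in HFs, 212, 118 and 207 in KFs and 628, 252 and 330 in TFs, and to 27.1 to 39.5 CPM in HFc and TFc. In KFc they summed to 148 to 153 CPM, most of it *Lrp2*. All 20 were called higher in HFs (18.3% of all genes) and TFs (11.0%) and 15 in KFs (14.7%), or 14 without KFs replicate 3. Of the 20, 4 had no count in any cultured library. *Acsm2* and *Kap*, both made by proximal tubule cells, were called in each organ. The part of this signal in the members' levels was not tested.

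The ratio of proximal tubule to segment genes was 20.5, 20.0 and 4.20 in HFs, 8.41, 8.02 and 10.2 in KFs, and 8.64, 11.48 and 12.01 in TFs. HFs replicates 1 and 2, the lowest and the second lowest in principal cell share of that group, thus had ratios of 20.5 and 20.0 at summed levels of 11.6 and 85.6 CPM, and HFs replicate 3 had the least proximal signal for its distal signal. The 6 KFs and TFs libraries lay between 8.02 and 12.01. The ratios were not corrected for proximal levels in culture, which in KFc were 148 to 153 CPM, above the 118 CPM of KFs replicate 2.

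**Figure D5:**
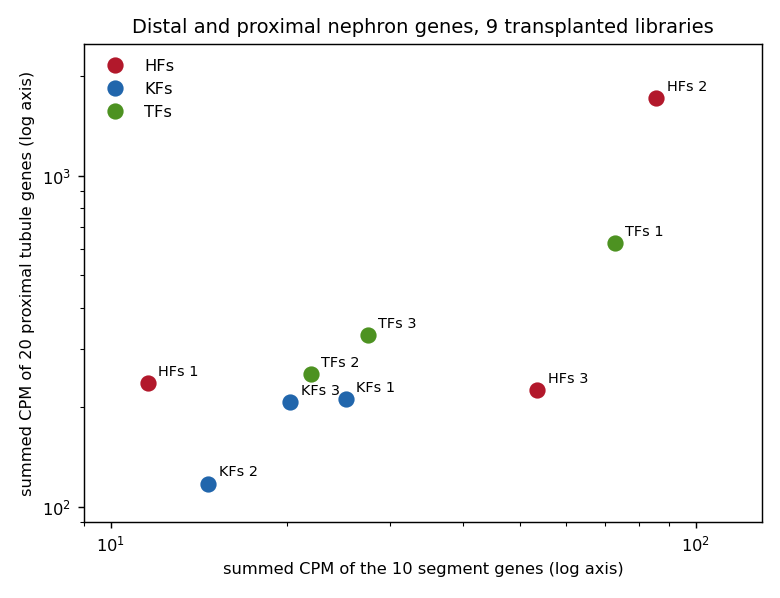
Summed CPM of the 10 segment genes (horizontal, log axis) against that of 20 proximal tubule genes (vertical, log axis) in the 9 transplanted libraries, coloured by group. HFs replicate 2 is highest on both, and HFs replicate 3 lies below the other libraries for its level of segment genes, with a proximal to segment ratio of 4.20. The sums are not corrected for levels in culture.

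Markers of other lineages gave other patterns. The 5 erythroid genes summed to 34.6, 0.120 and 38.7 CPM in HFs, 7.37, 3.04 and 0.138 in KFs and 7.53, 2.77 and 9.19 in TFs, with 0 in culture, and HFs replicate 2, highest in segment genes, held next to none. All 5 were called higher in HFs and TFs and 1 in KFs (5 without KFs replicate 3), after passing the filter through the transplanted libraries. Of the 8 endothelial genes, 6, 4 and 3 were higher and 1, 2 and 1 lower in HFs, KFs and TFs, and they summed to 33.4 to 74.5 CPM in transplanted and 58.3 to 71.9 in cultured libraries. The 8 leukocyte genes summed to 13.2 to 138 CPM in transplanted and 70.3 to 376 CPM in cultured libraries, but they went both ways (genes named after their values were seen). *Cd74* averaged 6.97 to 10.6 CPM in transplanted and 0.0671 to 0.523 CPM in cultured groups. For the mean of the 3 organs without KFs replicate 3, 3 of 8 were called higher, *Cd74*, *S100a8* and *S100a9*, and 4 lower. *S100a8* and *S100a9* had 0 counts in culture, so their calls are a description. The 6 podocyte genes summed to 216 to 538 CPM and 155 to 808 CPM, and the 7 urothelial genes to 0.112 to 7.75 CPM and 0.249 to 130 CPM. Most of the podocyte sum was *Synpo*, an actin-binding protein also made outside podocytes. The urothelial gene *Upk2* was at 0 in all libraries. The part of these lineages in the members' levels was not tested.

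Genes whose pattern was among the most like that of the summed members over 18 libraries, by Pearson's r of log2(CPM + 1) among 13943 genes with at least 1 CPM on average in transplanted libraries, were *H2-T23* (0.976), *Egf* (0.971), *Pck1* (0.968), *Angptl4* (0.965), *Mt2* (0.964), *Plvap* (0.961), *Fxyd2* (0.961), *Klk1* (0.960) and *Gm6472* (0.959). Over the 9 transplanted libraries alone they were *Casr* (0.933), *Rab11fip4* (0.933), *Egf* (0.924), *Slc4a4* (0.891), *Rnaset2a* (0.889), *Cdkl1* (0.887), *Gsta2* (0.887), *Rdh16* (0.881), *Clic5* (0.870) and *Slc16a7* (0.866). Of the genes named, only *Egf* stood on both lists. These are descriptions over libraries that share their depth with both measures, and the first follows the split between states.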

How the data were processed

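Libraries of 18 samples were sequenced 75 bases single-end. The paper's methods name a strand-specific total RNA kit (SMARTer Stranded Pico v2) for cells isolated from the kidney capsule. They do not name the kit used for the cultured controls, and a difference in library preparation between the states was not tested. The authors trimmed reads for quality and deposited expected counts per gene from RSEM with Bowtie2 on GRCm38, as whole numbers, not normalized. The labels list mm9 in place of GRCm38, so positions here come from GENCODE M21 on GRCm38 by Ensembl ID. Groups followed the labels. Depth was 17927838 to 32245168 counts per library. Counts were fitted in edgeR 4.0.16 (R 4.3.3) over all 18 libraries with filterByExpr, TMM factors, 1 mean per group and the quasi-likelihood test. Transplantation comparisons were called at an adjusted p under 0.05 and a log2 fold change beyond 1, the others at an adjusted p under 0.05. Levels are CPM on library totals, and a fold against a group at 0 uses 3 counts per library as its floor. Ratios of pooled counts carry exact conditional intervals and shares Clopper-Pearson intervals. The procedure was checked on simulated data.

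All 10 members were named with their values. From each list the genes named were those called in all 3 transplant comparisons or highest in transplanted libraries, at most 3 per list, with exceptions marked, and genes standing alone in a count also named. The members, lists and tests were chosen with earlier results of these data known. Alternatives were DESeq2 1.42.0, other scaling and filters, a replicate block, each library left out, and fits of 2 groups. Some genes and a motif that these rules would name are not reported here.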

Additional observations from a re-analysis of the deposited data

How the results depend on the processing

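For transplanted against cultured cells, and for members called between transplanted organs, no direction of a fold change reversed under any alternative run. Differences that were not called could change sign. *Slc12a3* in KFs relative to TFs went from a log2 fold change of 0.26 to -0.06 without KFs replicate 3. The calls of transplanted against cultured cells moved by over 1.5 times once, in HFs relative to HFc, to 5 with only the 2 groups compared, since the filter then left 5 members to test. HFs relative to TFs gave 0 with the replicate block and 0 to 2 with each library left out. KFs relative to TFs gave 0 with only the 2 groups compared and 0 to 1 with each library left out. HFs relative to KFs gave 1 with only the 2 groups compared and 1 to 4 with each library left out. The heart against kidney difference in response gave 3 with DESeq2 and 0 to 1 with each library left out. The cause was not tested. The replicate block left 9 calls in HFs relative to HFc, 5 in KFs relative to KFc and 6 in TFs relative to TFc, each without *Atp6v1g3*, and 2 in HFs relative to KFs, without *Aqp3*. Replicate numbers did not pair the libraries: deviations of same-numbered libraries correlated at -0.139 to 0.079. Depth limits the rarest members, since 3 counts in a library correspond to 0.0930 to 0.167 CPM, and *Scnn1b*, *Scnn1g* and *Atp6v1g3* had 0 to 16 counts in each KFs and TFs library.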
